A study of Drosophila melanogaster and Drosophila simulans with 122 samples.

Results

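The fourth chromosome of Drosophila melanogaster, the small dot chromosome, carried 114 of the 17874 genes listed in the per-library FPKM tables, and these 114 genes are described here from the spermatogonium to the elongating spermatid and in whole testis. They were taken by their chromosome and not by a measured value, although the chromosome itself was picked with earlier results of these data known. The 114 genes comprised 80 protein-coding genes, 26 noncoding RNAs, 7 pseudogenes and 1 snoRNA, and 112 of them were also among the 17612 genes of the count tables. mir-954 and mir-9385 had no counts.

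RNA of 3 D. melanogaster lines was sequenced, in 9 libraries of pooled testes and 62 libraries that each held 1 spermatogenic cyst. D. mel WT was the w1118 strain. D. mel KO was derived from it by a CRISPR/Cas9 deletion that removed almost all of both mir-983 copies, which lie on the X chromosome, and the replacement line carried the dsi-mir-983a precursor of D. simulans at that place. Each genotype was a single line, and neither mir-983 copy was among the counted genes, so the labels could not be checked through the deleted gene. Testis libraries came from flies 3 to 5 days after eclosion, with 20 to 25 pairs of testes pooled. Cysts came from flies 2 to 3 days after eclosion, were staged by cell size and shape, and were amplified one by one. Spermatogonial cysts (SG), late primary spermatocytes (pSC), round spermatids (rST) and elongating spermatids (eST) were represented by 6, 5, 5 and 5 libraries in D. mel WT, by 4, 5, 6 and 6 in D. mel KO and by 5 each in replacement, beside 3 testis libraries per line. The labels do not say which cysts shared a fly, so p-values measure the spread between these libraries.

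The dot chromosome is packaged in large part like heterochromatin, with HP1 and histone methylation laid down by eggless across its gene-bearing arm, yet its genes are transcribed. POF is a protein that binds the transcripts of this chromosome and raises their output. Its genes include housekeeping subunits, developmental transcription factors such as cubitus interruptus and pangolin, and genes of the nervous system. JYalpha, a sodium pump subunit needed for sperm motility, lies on this chromosome in D. melanogaster and has moved elsewhere in D. simulans.

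Total counts ranged from 15478484 to 21368301 in testis and from 14870386 to 24086166 in cysts. Of the 62 cysts, 9 were closer by rank correlation over 10860 genes to the cysts of another stage than to those of their own label, namely D. mel WT SG replicate 6, pSC replicate 4, rST replicate 1 and eST replicate 3, D. mel KO pSC replicates 4 and 5 and eST replicate 3, and replacement SG replicate 4 and pSC replicate 2. The shares, the differences of medians and the calls that changed are also given without these 9. Markers of spermatogonia (5 of 6 listed were found) summed to between 82.8 and 395 FPKM in D. mel WT SG and to between 3.88 and 12.0 in eST, whereas 8 spermatid markers summed to between 919 and 1672 in D. mel WT SG and to between 2795 and 3926 in eST. In the SG cysts of D. mel KO and replacement the spermatid markers were lower, between 153 and 1476 and between 39.7 and 1016 FPKM. Accessory gland markers, from a gland that lies next to the testis, summed to between 632 and 3174 FPKM in D. mel WT SG, to between 17.1 and 472 in D. mel KO SG and to between 49.2 and 188 in replacement SG. In whole testis they summed to between 13.1 and 16.8 FPKM in D. mel WT and to between 17.4 and 20.8 in replacement. D. mel KO testis ranged from 16.8 to 443 FPKM, with a median of 20.5. The part of any of these in the values below was not tested.

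The share of all counted reads that fell on dot chromosome genes was highest in SG and lowest in eST. In D. mel WT it was 0.619% ± 0.140 (SD, n = 6) in SG, 0.357% ± 0.0943 in pSC, 0.277% ± 0.0402 in rST and 0.160% ± 0.0302 in eST (n = 5 each), and 0.405% ± 0.0191 (n = 3) in whole testis. The lowest SG cyst, at 0.422%, lay above the highest eST cyst, at 0.198%. The share was 0.846% ± 0.339 in D. mel KO SG and 0.211% ± 0.0844 in eST, and in replacement 0.920% ± 0.298 and 0.173% ± 0.0349. In both of these lines, too, every SG cyst lay above every eST cyst. With the 9 cysts left out the D. mel WT share was 0.658% in SG, 0.384% in pSC, 0.26% in rST and 0.150% in eST, the D. mel KO share was 0.4% in pSC and 0.180% in eST, and the replacement share was 1.02% in SG and 0.514% in pSC. The share on 2L over the same D. mel WT groups was 19.9% ± 0.571 in SG and 21.0% ± 0.416 in eST, that on 3L was 19.7% ± 0.387 and 18.5% ± 1.57, and that on 3R was 26.3% ± 0.467 and 28.8% ± 1.03.

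**Figure D1:**
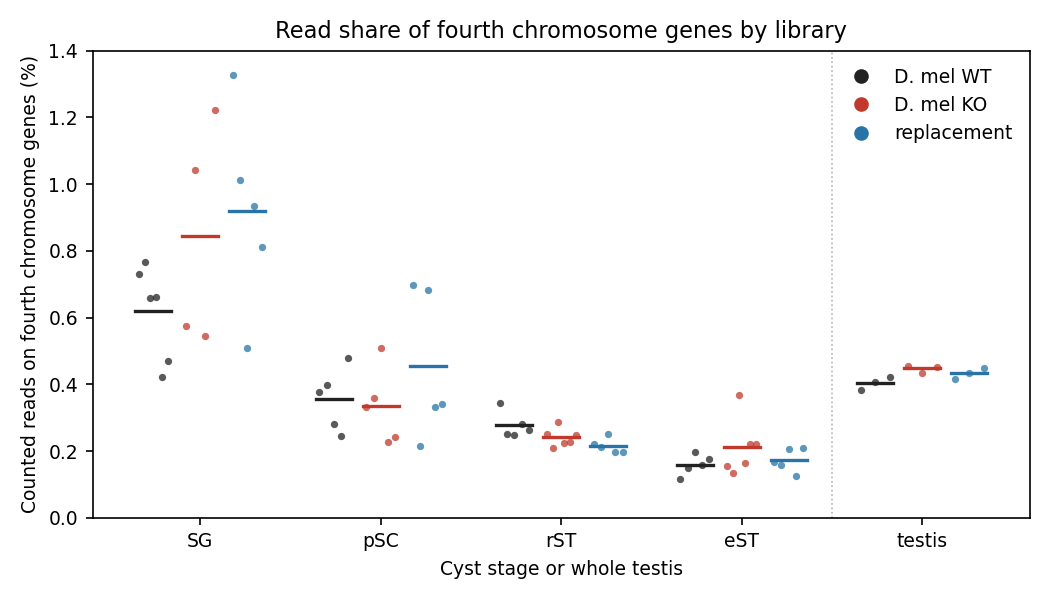
Percent of counted reads on dot chromosome genes in each of the 71 libraries (points) with the group mean (dash), by stage and for whole testis, in D. mel WT, D. mel KO and replacement. The share stands highest in SG (0.619%, 0.846% and 0.920%) and lowest in eST (0.160%, 0.211% and 0.173%), and testis lies between them in each line.

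A few genes took much of this share. In D. mel WT SG, ATPsynbeta held 16.1% and RpS3A 15.9% of the reads on the chromosome, and both held between 14.2% and 16.6% in the SG cysts of the other 2 lines. By eST the leading gene of D. mel WT was JYalpha, with 8.82% of the reads, followed by lgs with 7.37% and MED26 with 6.16%. In whole D. mel WT testis the leading genes were lgs (9.04%), JYalpha (5.61%) and PlexA (4.79%). A share of reads depends on gene length, and coding dot chromosome genes had a median span of 10090 bases against 2078.5 bases for 8800 coding genes on 2L, 3L and 3R.

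On the per-length FPKM scale the typical gene of the fourth chromosome stood below the typical gene of 2L, 3L and 3R at each stage. Genes with a mean of at least 0.1 FPKM over the libraries were used, 98 on the fourth and 9167 on the other arms. The median level in D. mel WT, as log2(FPKM + 1), was 2.24 on the fourth against 3.36 on the arms in SG, 1.89 against 2.89 in pSC, 1.64 against 2.16 in rST, 1.16 against 1.54 in eST and 2.44 against 2.78 in testis. The difference of medians per library was therefore -1.12 ± 0.199 in SG, -0.99 ± 0.123 in pSC, -0.52 ± 0.139 in rST, -0.37 ± 0.107 in eST and -0.34 ± 0.0388 in testis. The difference in D. mel KO was -0.58 in SG, -0.84 in pSC, -0.59 in rST, -0.67 in eST and -0.29 in testis, and in replacement -0.70, -0.86, -0.52, -0.62 and -0.30. The D. mel WT difference was smaller in eST than in SG, whereas in D. mel KO and in replacement these stages stood close to each other. With the 9 cysts left out the differences were between -1.10 and -0.35 over the 4 stages of D. mel WT, -0.82 in pSC and -0.62 in eST of D. mel KO, and -0.60 in SG and -0.93 in pSC of replacement. The values depend on which low genes are kept: with no minimum on level the D. mel WT values were -0.64 in SG, -0.47 in pSC, -0.12 in rST, -0.13 in eST and 0.0017 in testis, and those in testis were 0.046 in D. mel KO and 0.13 in replacement.

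**Figure D2:**
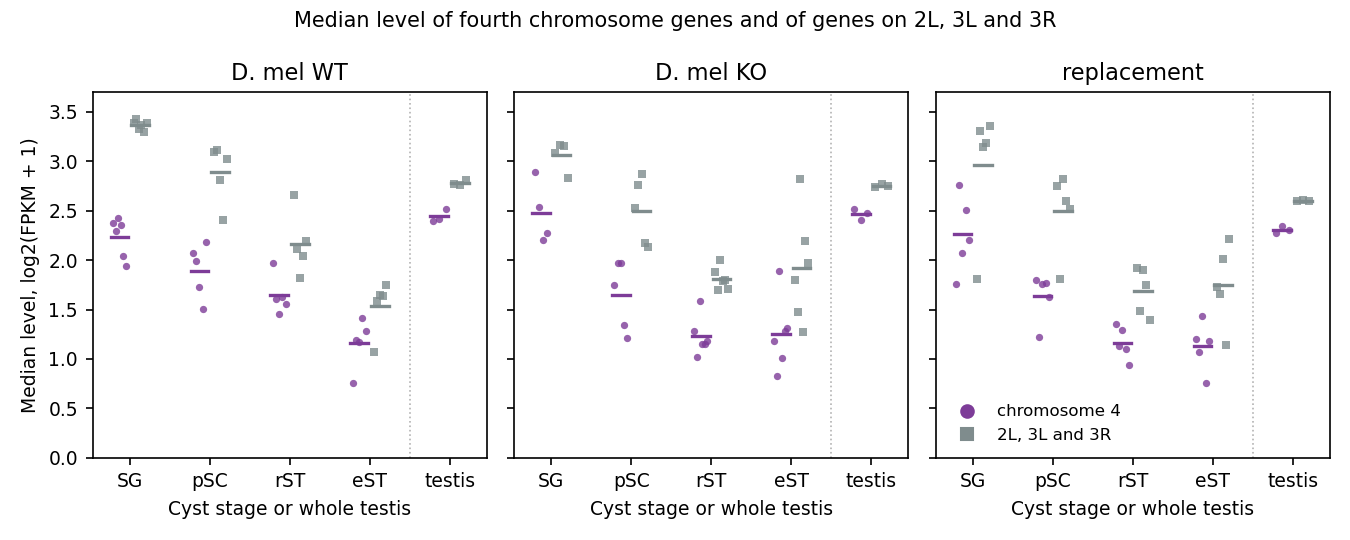
Median log2(FPKM + 1) of 98 dot chromosome genes (circles) and of 9167 genes on 2L, 3L and 3R (squares) in each library, by stage and testis, 1 panel per line. The circles lie below the squares at every stage, by 1.12 in D. mel WT SG and by 0.37 in D. mel WT eST.

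Of the coding genes, a larger share on the dot chromosome than on the other arms reached 1 FPKM in each of the 15 groups. A smaller share reached 10 FPKM in each. At 1 FPKM some gaps were small, as in D. mel KO pSC (63.75% against 63.4%). No test was made of the shares at either level. In D. mel WT SG, 71.25% of the 80 on the fourth and 70.0% of the 8800 on the arms reached 1 FPKM, and 58.75% and 55.8% did so in eST. At 10 FPKM the D. mel WT shares were 36.25% and 48.3% in SG, 31.25% and 42.6% in pSC, 27.5% and 33.6% in rST and 18.75% and 26.8% in eST, while those of replacement SG were 46.25% and 49.0%. With the 9 cysts left out the D. mel WT SG shares at 10 FPKM were 38.75% and 48.4%. In testis 78.75% of the fourth chromosome genes and 69.1% of the arm genes reached 1 FPKM. In D. mel WT, 42 of the 98 genes (42.9%) had a higher mean in testis than at any of the 4 stages, against 20.5% on the arms, and the shares were 31.6% against 22.9% in D. mel KO and 28.6% against 20.0% in replacement. Leaving out the 9 cysts gave 39.8% against 19.0%, 30.6% against 21.8% and 25.5% against 19.3%. Testis and cyst libraries were prepared differently from flies of different age, so these shares are set side by side with no test, and in whole testis fewer cells of a type and less RNA per cell cannot be told apart. Neuron markers (8 of 8 found) summed to between 24.2 and 27.4 FPKM in D. mel WT testis against 2.35 to 22.5 in D. mel WT cysts, muscle markers (11 of 11) to between 175 and 202 against 6.62 to 324, and somatic cyst cell markers (6 of 6) to between 30.1 and 32.7 against 3.82 to 31.2. Their part in the testis levels was not tested.

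SG was the peak of a larger share of genes on the fourth than on the arms. Of 69 genes with at least 1 FPKM at some stage of D. mel WT, 56.5% had their highest mean in SG, 20.3% in pSC, 17.4% in rST and 5.80% in eST. The same shares among 7544 genes of 2L, 3L and 3R were 43.4%, 26.1%, 15.6% and 14.9%. SG was the peak of 68.0% of the fourth chromosome genes in D. mel KO and of 63.4% in replacement, against 47.7% and 45.4% on the arms, and eST was the peak of 5.33% and 2.82% against 14.4% in both lines. SG was still the most frequent peak without the 9 cysts, at 50.7% against 40.2% in D. mel WT, 64.5% against 44.5% in D. mel KO and 63.2% against 42.4% in replacement.

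**Figure D3:**
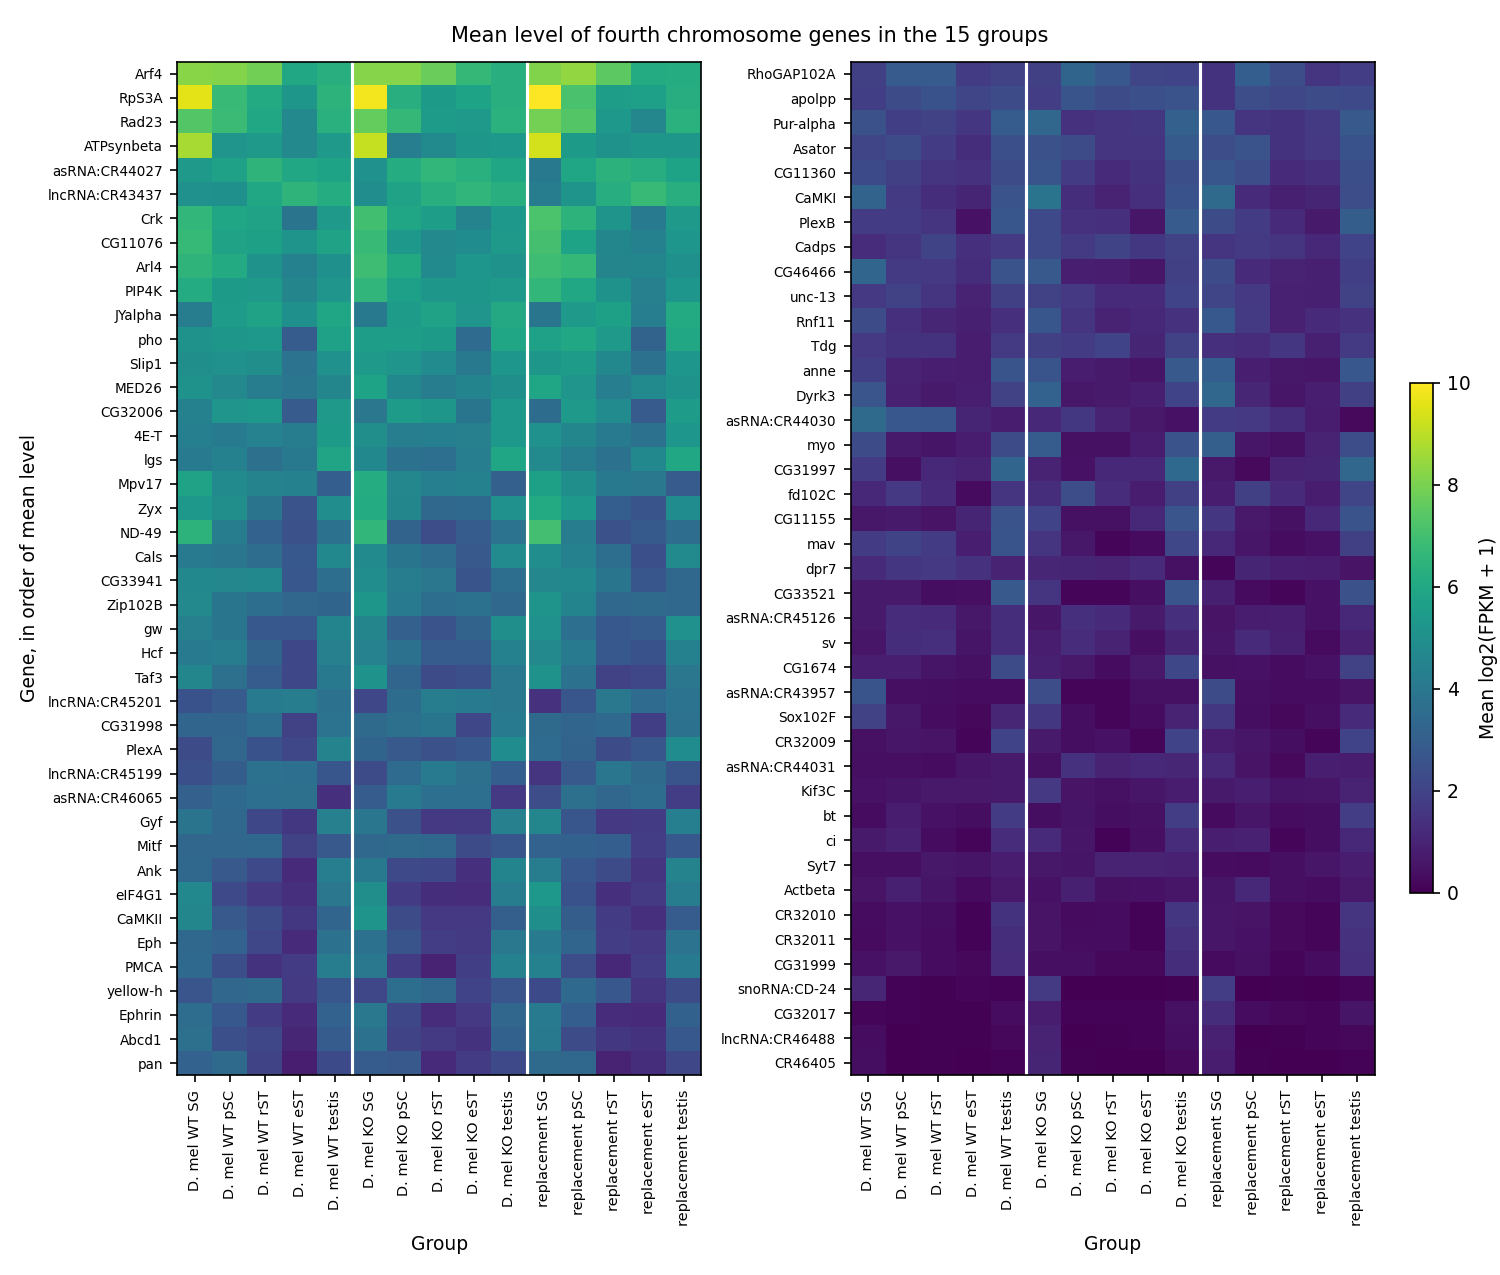
Mean log2(FPKM + 1) of 83 dot chromosome genes that reached 1 FPKM in some group (rows, in order of mean level, split into left and right panels) over the 15 groups of line and stage or testis (columns), from dark (low) to yellow (high). ATPsynbeta and RpS3A are among the top rows and are brightest in the 3 SG columns.

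The course between successive stages was tested with edgeR's quasi-likelihood test in 1 fit per line over all genes, and a gene was called at an absolute log2 fold change over 1 and a Benjamini-Hochberg adjusted p under 0.05. Of the 91 dot chromosome genes tested from SG to pSC in D. mel WT, 7 rose and 17 fell, while 4.75% of all genes tested rose and 16% fell. In D. mel KO 11 of 93 rose and 31 fell (19.7% and 25.4% of all genes), and in replacement 11 of 92 rose and 28 fell (17.8% and 22%). The share called among the fourth chromosome genes, 26.4%, 45.2% and 42.4%, was near that among all genes, 20.7%, 45.1% and 39.9%. The shares that rose and fell were 7.69% and 18.7% in D. mel WT, 11.8% and 33.3% in D. mel KO, and 12% and 30.4% in replacement, so falls outnumbered rises in each line. The median log2 fold change was 0.16 on the fourth and 0.18 over all genes in D. mel WT, -0.50 and 0.15 in D. mel KO, and -0.22 and 0.15 in replacement. DESeq2 size factors moved the median of all genes to 0.30 in D. mel WT and 0.44 in replacement at this step, and from pSC to rST from -0.18 to -0.06 in D. mel WT and from -0.20 to 0.13 in replacement. In all 3 lines 15 of these genes fell, and RhoGAP102A was the 1 gene that rose. How many of all genes were called in all 3 lines was not counted, at this step or the later ones.

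Housekeeping genes had the lowest median of the role lists from SG to pSC. Of the 8 tested, 5 fell and JYalpha rose in D. mel WT, 6 fell and JYalpha rose in D. mel KO, and 6 fell in replacement, with median log2 fold changes of -1.72, -2.30 and -2.07. Of all genes, 16%, 25.4% and 22% fell in these lines and 4.75%, 19.7% and 17.8% rose. The same numbers of housekeeping genes fell with the 9 cysts left out. ATPsynbeta (4:1031484-1034917 in release r6.36, plus strand), the catalytic beta subunit of mitochondrial ATP synthase, was between 237 and 577 FPKM in D. mel WT SG, with a median of 506, and at 51.5, 33.2, 28.9, 22.1 and 56.2 FPKM in pSC. The groups did not overlap, and the log2 fold change was -3.50 (SE 0.36, adjusted p = 6.8e-07). In the other lines ATPsynbeta was at 315, 671, 361 and 1201 FPKM in D. mel KO SG and at 1163, 739, 248, 670 and 689 in replacement SG, and the step was -4.56 and -3.81. It overlaps CG11076, and reads counted without strand from the 2 genes cannot be told apart. After pSC the ATPsynbeta level was no longer called as different at any step, with 24.3 to 64.5 FPKM in D. mel WT rST, 10.4 to 45.0 in eST and 37.6, 42.2 and 43.1 in testis.

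RpS3A (4:65225-67207, minus strand), a protein of the small ribosomal subunit that hosts snoRNA:CD-24, was between 355 and 1148 FPKM in D. mel WT SG, with a median of 1043, and at 164, 144, 62.1, 49.4 and 221 FPKM in pSC. It fell by 2.77 on the log2 scale (SE 0.39, adjusted p = 2.3e-05) with no overlap, and by 3.26 in D. mel KO and 2.76 in replacement. eIF4G1, the scaffold of the cap-binding translation initiation complex, was between 11.3 and 42.5 FPKM in D. mel WT SG and at 5.28, 4.65, 2.23, 1.75 and 5.79 in pSC (log2 fold change -2.71, SE 0.43, adjusted p = 6.6e-05). ND-49, a subunit of respiratory complex I, was between 46.4 and 121 FPKM in SG and at 31.9, 23.6, 7.34, 6.52 and 45.6 in pSC (log2 fold change -2.03, SE 0.42, adjusted p = 0.0012). None of these 3 genes overlapped between the groups in D. mel WT. Within pSC, the same 2 cysts, replicates 1 and 5, were the highest for ATPsynbeta, RpS3A, eIF4G1 and ND-49.

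JYalpha (4:879-5039, plus strand), the first gene at the left end of the annotation of the fourth chromosome, took the opposite course in D. mel WT. Its levels were between 11.4 and 23.5 FPKM in SG, with a median of 18.7, then 30.0, 48.7, 52.3, 54.7 and 40.2 in pSC, 45.8, 45.8, 57.7, 70.1 and 53.9 in rST and 25.3, 34.6, 47.5, 17.7 and 40.9 in eST. Every pSC cyst lay above every SG cyst, and the step was called at a log2 fold change of 1.44 (SE 0.26, adjusted p = 0.00026). In D. mel KO, where JYalpha was at 28.2, 21.8, 25.8 and 3.18 FPKM in SG, the step was 1.48 (SE 0.46, adjusted p = 0.012), and with the 9 cysts left out it was 1.16 and no longer called (adjusted p = 0.087). In replacement SG it was at 0.275, 16.2, 49.0, 19.1 and 30.1 FPKM, and the step was not called. Testis held 57.1, 60.0 and 61.2 FPKM in D. mel WT, 64.9, 67.5 and 64.0 in D. mel KO and 63.9, 69.9 and 72.3 in replacement. Over the 5 D. mel WT group means the profiles most like that of JYalpha by Pearson's r were those of apolpp (0.93), sv (0.85), asRNA:CR45126 (0.82), Cadps (0.79) and bt (0.65), each over 5 points from the same libraries.

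**Figure D4:**
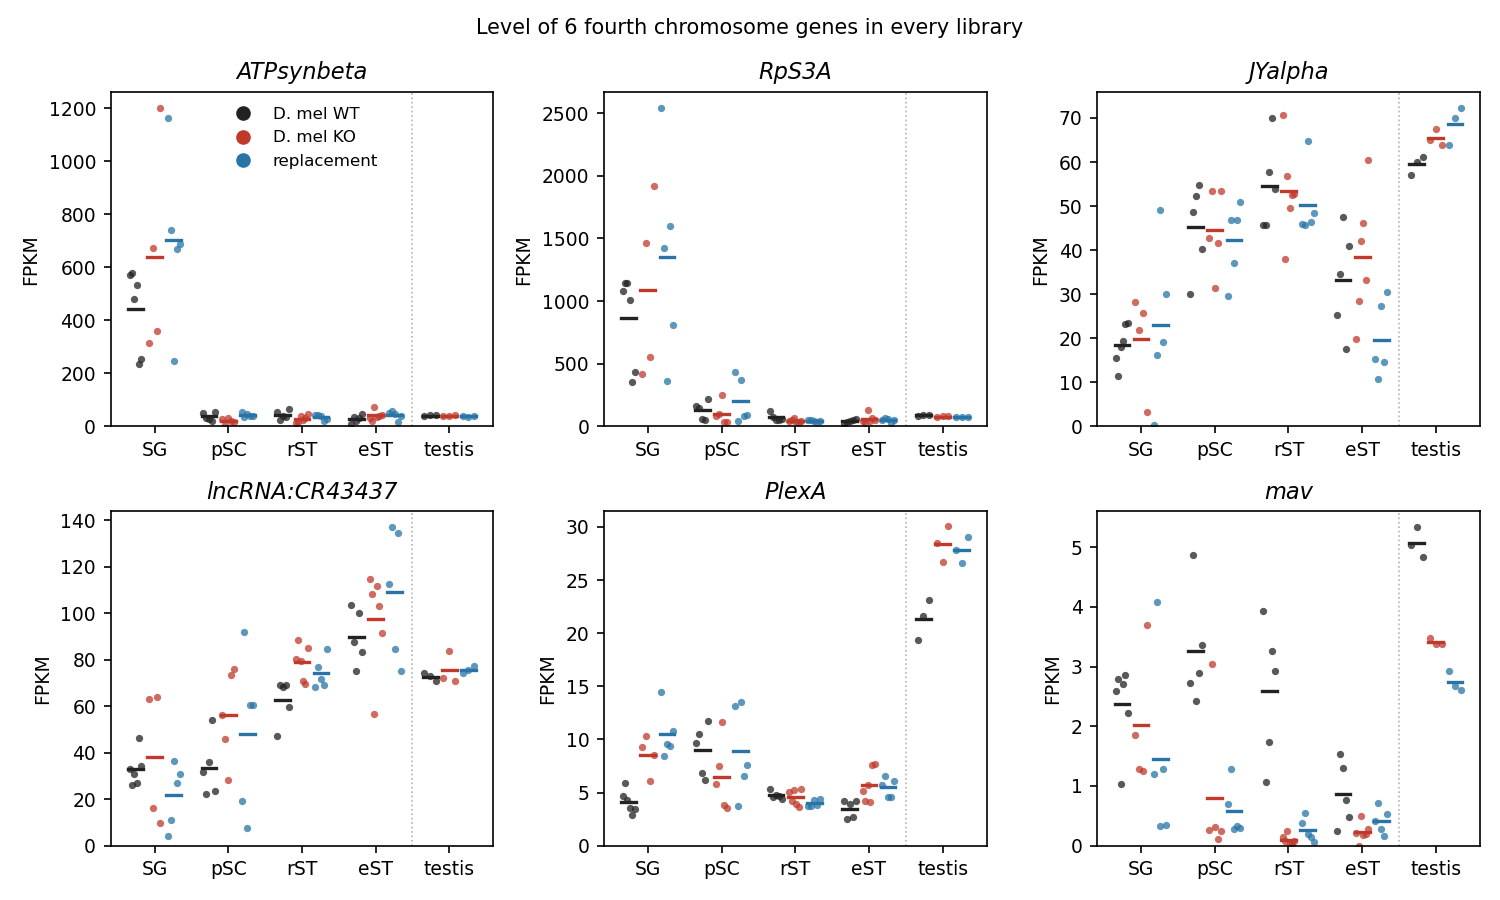
FPKM of ATPsynbeta, RpS3A, JYalpha, lncRNA:CR43437, PlexA and mav in each library (points) by stage and testis, coloured by line. ATPsynbeta and RpS3A stand highest in SG (medians of 506 and 1043 FPKM in D. mel WT), lncRNA:CR43437 in eST (75.3 to 103 FPKM), and mav lies lower in D. mel KO and replacement than in D. mel WT at rST.

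For transcription factors and developmental regulators, calls at this step went in both directions. Of 19 tested in D. mel WT 2 rose and 2 fell, of 18 in D. mel KO 2 rose and 3 fell, and of 18 in replacement 4 rose and 2 fell, beside the 20.7%, 45.1% and 39.9% of all genes called in these lines. Sox102F, a Sox family factor, fell in all 3 lines, by 2.34 on the log2 scale in D. mel WT (SE 0.55, adjusted p = 0.0031), from between 1.32 and 4.72 FPKM in SG to 1.76, 0.438, 0.340, 0.194 and 0.546 in pSC, with overlap at the first of these. Shaven (sv), a Pax2-like factor, rose by 1.4 (SE 0.38, adjusted p = 0.010) in D. mel WT and by 1.62 in replacement, a call that ended without SG replicate 5 or pSC replicate 4 or 5, and was at or below 2.18 FPKM in every cyst of D. mel WT.

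Of 18 receptors, ligands and signalling genes tested, 1 rose and 3 fell in D. mel WT, 6 fell in D. mel KO and 5 fell in replacement, beside 16%, 25.4% and 22% of all genes that fell. CaMKII, a calcium-dependent kinase known for its part in synaptic plasticity, was between 10.3 and 34.0 FPKM in D. mel WT SG, with a median of 28.3, and at 7.75, 7.58, 4.49, 2.32 and 10.4 in pSC. Its normalized counts did not overlap, and its log2 fold change was -1.98 (SE 0.33, adjusted p = 0.00012). Dyrk3, a dual-specificity kinase, was between 2.57 and 9.23 FPKM in SG and at 1.26, 0.789, 0.547, 0.559 and 1.36 in pSC (log2 fold change -2.54, SE 0.46, adjusted p = 0.00028). Myoglianin (myo), a TGF-beta family ligand, fell by 2.59 in D. mel WT (SE 0.70, adjusted p = 0.0090), 3.85 in D. mel KO and 3.57 in replacement. PlexA (4:1009895-1027101, minus strand), a semaphorin receptor, was called as rising in D. mel WT at 1.00 (SE 0.24, adjusted p = 0.0034), from between 2.88 and 5.89 FPKM to 9.63, 10.5, 6.86, 6.17 and 11.7. That call stood just at the fold threshold and ended with the 9 cysts left out, at 0.83, and without any one of 7 single libraries, over a range of 0.90 to 1.16.

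Genes of synapses, vesicles and ion transport, 10 in all, gave no call from SG to pSC in D. mel WT, 1 rise and 2 falls in D. mel KO, and 1 rise and 1 fall in replacement. PMCA, the calcium pump of the plasma membrane, fell in D. mel KO by 2.31 (SE 0.43, adjusted p = 0.00024) and in replacement by 1.97 (SE 0.39, adjusted p = 0.00068). Among 5 genes of cytoskeleton, adhesion and muscle, 2 rose in D. mel WT and 3 in each of the other lines, and none fell. Of all genes, 4.75%, 19.7% and 17.8% rose in D. mel WT, D. mel KO and replacement. The shares of all genes that fell were 16%, 25.4% and 22%. RhoGAP102A was between 1.84 and 3.67 FPKM in D. mel WT SG and at 4.75, 8.24, 6.66, 4.69 and 8.20 in pSC. It rose by 1.31 (SE 0.26, adjusted p = 0.00068), by 1.67 in D. mel KO and by 1.97 in replacement. The call of bt, which encodes the giant muscle protein projectin, at 1.58 in D. mel WT rested on pSC replicate 1, where bt was at 2.30 FPKM against 0.328 to 0.590 in the other 4 and muscle markers summed to 324 FPKM, and was 0.93 without it.

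**Figure D5:**
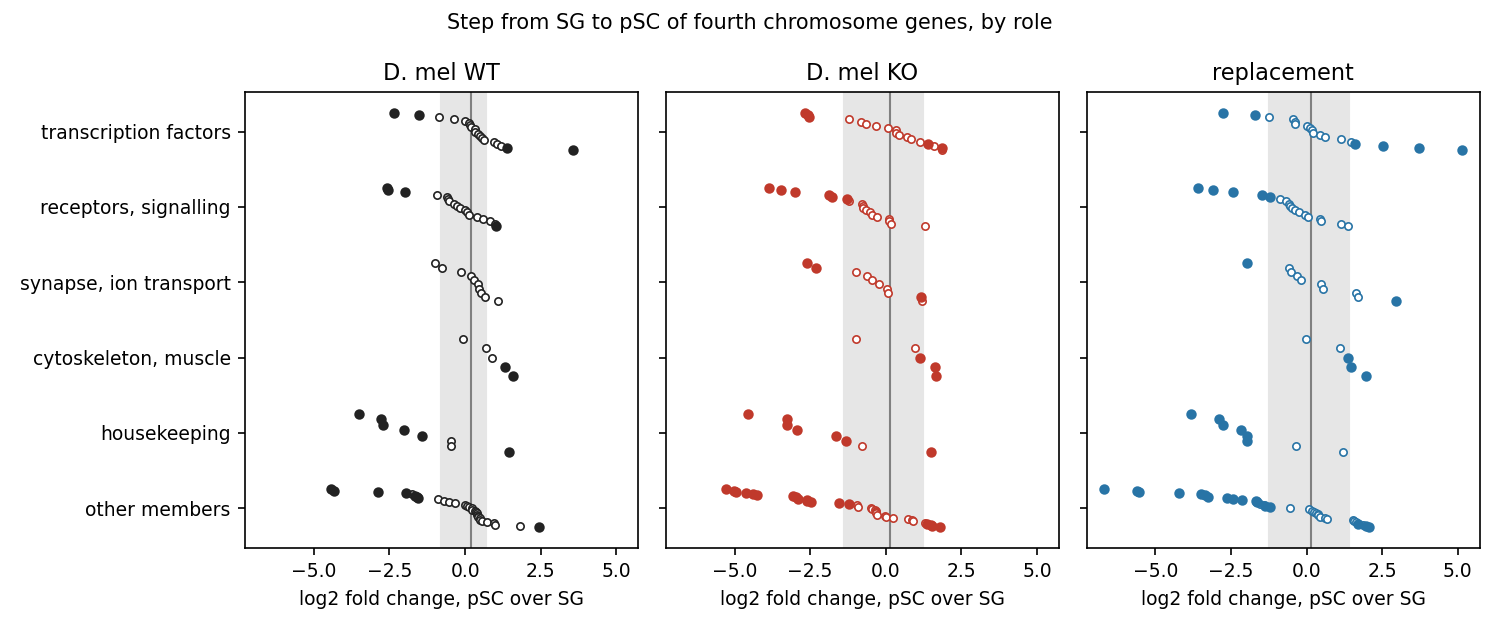
Log2 fold change from SG to pSC of each dot chromosome gene tested, grouped by role list, 1 panel per line, with called genes filled, the median of all genes tested as a line and their interquartile range as a grey band (-0.80 to 0.69 in D. mel WT). Most housekeeping genes lie far below the band in each panel, at medians of -1.72, -2.30 and -2.07, and no gene of the cytoskeleton list is filled below it.

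Genes outside these lists contributed to the same step. asRNA:CR43957, an antisense transcript, was between 2.47 and 8.88 FPKM in D. mel WT SG and at or below 0.583 in every pSC cyst (log2 fold change -4.33, SE 0.64, adjusted p = 3.5e-05), and fell by 4.63 in D. mel KO and 4.23 in replacement. CaMKI, a kinase related to CaMKII in its activation by calmodulin, was between 5.19 and 11.3 FPKM in SG and at 4.62, 1.94, 1.00, 1.56 and 3.54 in pSC, and fell by 1.65 (SE 0.40, adjusted p = 0.0040). Arf4, a small GTPase of the Arf family, was one of the most abundant genes of the chromosome and was not called, with 239 to 352 FPKM in D. mel WT SG and 310, 305, 216, 202 and 443 in pSC.

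From pSC to rST few dot chromosome genes were called. In D. mel WT 5 of 91 rose and none fell, where 5.87% of all genes rose and 12.8% fell (18.7% in both directions). In D. mel KO none of 93 rose and 4 fell (0.325% and 13.5% of all genes, 13.8% together), and in replacement 1 of 92 rose and 12 fell (0.616% and 18.5%, 19.1% together). The absence of falls in D. mel WT depended on the libraries, since 9 rose and 8 fell with the 9 cysts left out, and 13 were called without D. mel WT pSC replicate 4 and 8 without rST replicate 1. For D. mel KO 2 were called without pSC replicate 2 or rST replicate 2 and 7 without pSC replicate 4 or 5, against 10 with the 9 cysts left out. In replacement 6 were called without pSC replicate 1 or 3 and 8 without rST replicate 5. Counts over all genes without these single libraries are not given. With the 9 cysts left out, 1835 of 13299 genes in all rose and 2769 fell in D. mel WT. In D. mel KO 1345 of 12932 rose and 1655 fell. No dot chromosome gene was called in all 3 lines. With DESeq2 size factors 2 rose and 8 fell in replacement, where 204 of 13079 genes in all rose and 1671 fell.

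The genes that rose from pSC to rST in D. mel WT were CG31997, which had the largest log2 fold change (2.55), Cadps and noncoding RNAs. lncRNA:CR45201 was at 4.60, 5.80, 9.5, 10.8 and 3.43 FPKM in pSC and at 10.9, 20.9, 19.1, 19.3 and 14.2 in rST (log2 fold change 2.05, SE 0.46, adjusted p = 0.0059). lncRNA:CR43437 (4:426067-426601, plus strand) rose at this step by 1.4 (SE 0.32, adjusted p = 0.0065) and again to eST. asRNA:CR44027 rose by 1.35 (SE 0.33, adjusted p = 0.0088), from 40.2, 43.5, 58.7, 72.7 and 47.8 FPKM to 80.2, 108, 93.2, 92.3 and 81.3. It overlaps the transcription factor gene dati, and the counts did not use strand. Cadps, which primes dense-core vesicles for release, was the 1 gene of the role lists called, at 1.28, 2.24, 2.39, 1.71 and 1.84 FPKM in pSC and 2.67, 3.17, 3.18, 3.03 and 3.57 in rST (log2 fold change 1.22, SE 0.27, adjusted p = 0.0056).

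In D. mel KO and replacement all called genes but Tdg, which rose in replacement, fell, and pangolin, cubitus interruptus and Arl4 fell in both. The D. mel KO call of Arl4 ended with the 9 cysts left out, at -0.93. pan, the TCF factor at the end of Wingless signalling, fell by 1.79 in D. mel KO (SE 0.41, adjusted p = 0.0053), from 7.24, 10.5, 11.9, 2.81 and 2.65 FPKM to between 1.03 and 2.00. In replacement pan was at 20.9, 1.88, 15.6, 11.1 and 7.29 FPKM in pSC and at 1.03, 0.885, 1.64, 0.822 and 0.440 in rST (log2 fold change -2.67, SE 0.42, adjusted p = 0.00060). In D. mel WT it was at 9.83, 17.5, 6.78, 4.35 and 19.0 FPKM in pSC and at 10.0, 3.32, 1.43, 2.43 and 2.04 in rST, with the high rST value in replicate 1, 1 of the 9 cysts, and was called as falling once these were left out. ci, the transcription factor of Hedgehog signalling, fell by 2.35 in D. mel KO (SE 0.55, adjusted p = 0.0068) and by 2.2 in replacement (SE 0.68, adjusted p = 0.024), a call lost without any one of 5 single libraries, and was below 2 FPKM in every pSC and rST cyst of the 3 lines.

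From rST to eST 4 of 91 genes rose and 10 fell in D. mel WT (12% and 10.5% of all genes, 22.5% together), 3 of 93 rose and 9 fell in D. mel KO (11.3% and 7.84%, 19.1% together), and 5 of 92 rose and 3 fell in replacement (10.2% and 4.33%, 14.5% together). The D. mel WT count was 9 in all without rST replicate 4. In replacement DESeq2 size factors gave 4 rises and 11 falls, beside 952 rises and 852 falls among 13079 genes in all. The dot chromosome count in replacement was 13 without SG replicate 1, 4 without eST replicate 2 and 5 without rST replicate 4. No counts over all genes are set beside these single-library counts. CG11155 and PMCA rose and pho, Mitf and CG31998 fell in all 3 lines, with no such count over all genes to set beside them.

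Of the 10 genes that fell in D. mel WT, 4 were on the list of transcription factors and development. pho, the DNA-binding protein of the Polycomb group, was at 40.0, 38.1, 40.6, 42.2 and 34.6 FPKM in D. mel WT rST and at 1.4, 2.60, 31.2, 9.07 and 7.74 in eST. All eST cysts lay below all rST cysts on this scale, and the step was -1.39 (SE 0.46, adjusted p = 0.028) in D. mel WT, -1.80 (SE 0.32, adjusted p = 0.00069) in D. mel KO and -1.92 (SE 0.34, adjusted p = 0.0016) in replacement. The D. mel WT call of pho ended without rST replicate 4 or eST replicate 2 or 5. Mitf, a regulator of lysosome genes, fell by 1.16, 1.25 and 1.22 in the 3 lines, and its D. mel WT value was -0.96 without rST replicate 4. Crk, an SH2 and SH3 adaptor of receptor kinases, was at 60.2, 45.8, 47.8, 62.2 and 50.3 FPKM in D. mel WT rST and at 5.64, 9.52, 32.7, 15.6 and 14.8 in eST (log2 fold change -1.26, SE 0.30, adjusted p = 0.0042). CG32006, for which no role is given here, fell by 1.90 in D. mel WT (SE 0.38, adjusted p = 0.0013). For pho and Crk the highest eST value, 31.2 and 32.7 FPKM, was that of replicate 3, which lay closer to rST in its whole profile.

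lgs (4:436957-443911, minus strand), the BCL9-like coactivator that joins Armadillo to its partners in Wingless signalling, rose in D. mel WT by 1.07 (SE 0.21, adjusted p = 0.0013) and in replacement by 1.36 (SE 0.28, adjusted p = 0.0037). Its levels were 14.8, 12.4, 10.9, 10.1 and 11.2 FPKM in D. mel WT rST and 16.8, 16.2, 10.8, 16.3 and 18.2 in eST, against 50.3, 61.6 and 57.1 in testis. The D. mel WT call stood near the fold threshold and ended without rST replicate 1 or eST replicate 1 or 4, at 0.97 to 1.00. lncRNA:CR43437 was at 47.1, 69.3, 68.1, 68.9 and 59.6 FPKM in D. mel WT rST and at 103, 87.6, 75.3, 100.3 and 83.4 in eST (log2 fold change 1.17, SE 0.32, adjusted p = 0.0091), and was 0.95 without rST replicate 1. CG11155 rose by 2.05 in D. mel WT (SE 0.56, adjusted p = 0.010) and was 1.24 without eST replicate 4, where it stood at 2.92 FPKM against 0.434 to 1.05 in the other 4.

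The 3 lines were then compared within testis and within each stage, as WT against KO (C), replacement against KO (B) and WT against replacement (C-B), with log2 fold changes in that order. The 3 comparisons share libraries. In testis 89 dot chromosome genes were tested. In C 1 was called (5.17% of all genes tested), in B none (6.18%) and in C-B none (7.68%). At an unadjusted p under 0.05 there were 33, 16 and 34 of these 89 genes (28.9%, 34% and 39.4% of all genes), and DESeq2 called 1, 0 and 0. Among 12842 genes in all it called 281 higher and 307 lower in C, 236 and 455 in B and 584 and 352 in C-B. The 1 dot chromosome gene called was dpr7 (4:247124-253329, minus strand), an immunoglobulin-domain protein of the neuronal surface. It was at 1.03, 1.01 and 0.868 FPKM in D. mel WT, 0.474, 0.537 and 0.164 in D. mel KO and 0.376, 0.431 and 0.567 in replacement. The groups of C did not overlap, which held for 31 of the 89 genes. How many of all genes did not overlap was not counted. The call of dpr7 (log2 fold change 1.43, SE 0.45, adjusted p = 0.044) ended when any of 8 of the 9 testis libraries was left out. The median log2 fold change in C was -0.13 on the fourth and -0.01 over all genes.

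In SG 94 genes were tested. C called none (0.129% of all genes), B none (0.364%) and C-B 3 (1.9%), with 23, 6 and 27 at an unadjusted p under 0.05 (8.36%, 8.45% and 16.8% of all genes). DESeq2 called 7, 3 and 8. Among 13197 genes in all it called 158 higher and 133 lower in C. The same counts were 76 and 210 in B and 687 and 253 in C-B. The median log2 fold change was -0.51 in C against 0.01 over all genes and -0.53 in C-B against 0.02, so the fourth chromosome genes of D. mel WT SG stood lower beside both other lines, in cysts that also differed in their marker levels. PlexA was between 2.88 and 5.89 FPKM in D. mel WT SG, with a median of 3.91, at 9.24, 10.3, 6.10 and 8.5 in D. mel KO and at 14.5, 8.42, 9.59, 9.40 and 10.8 in replacement. It was called in C-B at -1.35 (SE 0.29, adjusted p = 0.025), a call lost without any one of 5 single libraries. CG32017, which overlaps CG11155 and Kif3C, was at or below 0.186 FPKM in D. mel WT SG and at 2.18, 2.21, 0.314, 1.81 and 1.57 in replacement (log2 fold change -4.06, SE 0.80, adjusted p = 0.015). onecut (4:598555-607649, minus strand), a cut homeodomain factor of photoreceptors and neurons, was called at 5.77 (SE 1.08, adjusted p = 0.012), but rested on 2 reads in all replacement SG libraries against 155 in D. mel WT SG, a ratio per counted read of 76.7 with a counting interval of 20.9 to 639 (95%). CG32017 alone was still called with the 9 cysts left out.

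In pSC 89 genes were tested, and none was called in C (1.8% of all genes), B (1.73%) or C-B (3.95%). There were 16, 11 and 20 at an unadjusted p under 0.05 (17.9%, 12% and 18.6% of all genes), and DESeq2 called 1, 0 and 3. Among 12980 genes in all DESeq2 called 503 higher and 294 lower in C. The same counts were 162 and 359 in B and 642 and 328 in C-B.

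In rST 86 genes were tested. C called 4, all higher in D. mel WT, where 5.69% of all genes were called and 3.71% were higher. B called 1 (4.37% of all genes), and C-B called 6, all higher in D. mel WT, where 11.4% of all genes were called and 8.55% were higher. At an unadjusted p under 0.05 there were 25, 12 and 25 (28.8%, 19.8% and 37.3% of all genes), and DESeq2 called 4, 1 and 5. Among 12408 genes in all it called 527 higher and 350 lower in C, 259 and 445 in B and 1007 and 458 in C-B. mav (4:623219-626031, minus strand), maverick, a TGF-beta superfamily ligand, was at 3.93, 1.06, 1.74, 3.27 and 2.93 FPKM in D. mel WT rST, between 0.0227 and 0.248 in D. mel KO with a median of 0.084, and at 0.379, 0.544, 0.203, 0.144 and 0.0574 in replacement. Every D. mel WT cyst lay above every cyst of the other lines. The log2 fold change was 4.40 in C (SE 0.60, adjusted p = 0.00019) and 3.04 in C-B (SE 0.60, adjusted p = 0.0023), and both calls held with the 9 cysts left out. In eST mav was at 0.252, 1.54, 1.30, 0.762 and 0.478 FPKM in D. mel WT and between 0 and 0.492 in D. mel KO, and in testis at 5.03, 5.33 and 4.83 in D. mel WT, 3.47, 3.38 and 3.37 in D. mel KO and 2.93, 2.68 and 2.61 in replacement. Testis values, too, did not overlap between D. mel WT and the other lines, but the fold change there was below the threshold for a call. Such separation was common in testis: by normalized counts 31 of 89 dot chromosome genes did not overlap in C and 33 in C-B. The same count over all genes was not made, so these numbers do not set the dot chromosome apart.

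CG46466 (4:661009-663124, minus strand) was at 3.43, 1.5, 1.72, 2.78 and 1.72 FPKM in D. mel WT rST and between 0.36 and 1.11 in D. mel KO (log2 fold change in C 1.34, SE 0.29, adjusted p = 0.0070), and held with the 9 cysts left out. ci, at 1.59 (SE 0.47, adjusted p = 0.045), and pan, at 1.11 (SE 0.33, adjusted p = 0.047), were the other genes called in C. The call of ci was lost without any one of 11 of the 16 rST libraries and that of pan without any one of 10, and with the 9 cysts left out they were 0.95 and 0.62 and not called. The count of C was also 2 without D. mel KO rST replicate 1 or without replacement rST replicate 1, 2 or 4, with no count over all genes given. With DESeq2 size factors C had 2 dot chromosome genes higher and 1 lower, beside 364 higher and 279 lower of 12408 genes in all. Syt7, a synaptotagmin, the calcium sensors of vesicle fusion, was the gene called in B, at 0.394, 0.281, 0.195, 0.336 and 0.405 FPKM in replacement and between 0.674 and 1.16 in D. mel KO (log2 fold change -1.34, SE 0.29, adjusted p = 0.0092). dpr7 was called in C-B at 1.26 (SE 0.26, adjusted p = 0.0030), with 2.16, 2.14, 2.11, 2.19 and 2.22 FPKM in D. mel WT and 1.21, 0.694, 0.728, 0.815 and 0.571 in replacement. CG1909, pan, Taf3 and onecut were the other genes called in C-B, at 1.59, 1.52, 1.08 and 1.01. The calls of Taf3 and onecut ended with the 9 cysts left out, and without any one of 3 and of 6 single libraries.

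In eST 87 genes were tested. C called mav at 2.36 (SE 0.63, adjusted p = 0.046) and CG46466 at 2.05 (SE 0.50, adjusted p = 0.030), where 3.24% of all genes were called, and neither call remained with the 9 cysts left out or without any one of D. mel KO eST replicates 1, 3, 5 and 6 or D. mel WT eST replicates 2 and 4. Of these calls 1 remained without D. mel WT eST replicate 3 or without replacement eST replicate 1, 3 or 5. B and C-B called none (1.61% and 5.11% of all genes). At an unadjusted p under 0.05 there were 7, 5 and 7 in C, B and C-B (17.7%, 14% and 20.5% of all genes), and DESeq2 called 0 in B and 3 in C-B. Among 12468 genes in all it called 193 higher and 272 lower in B and 755 and 577 in C-B.

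Whether a line changed the course of a gene was tested as the difference of a step between lines, in 1 fit over the 62 cysts and 95 dot chromosome genes, with edgeR at an adjusted p under 0.05. From SG to pSC the step of D. mel KO differed from that of D. mel WT for 2 genes (0.505% of all genes), and that of replacement for 2 (1.13%). From pSC to rST none of all genes tested was called (0%), with 1 and 14 dot chromosome genes at an unadjusted p under 0.05 in D. mel KO and replacement (3.34% and 9.15% of all genes). From rST to eST 2 genes differed in D. mel KO (3.31%) and 1 in replacement (1.77%). From rST to eST the log2 fold change of pan was -1.4 in D. mel WT, where it was called, and 0.85 in D. mel KO and 0.87 in replacement, where it was not, and the step differed from that of D. mel WT by 2.44 in D. mel KO (adjusted p = 0.0089) and 2.41 in replacement (adjusted p = 0.024), and neither difference was called without D. mel WT rST replicate 1. The difference in replacement was lost without any one of 7 single libraries. With the 9 cysts left out the D. mel WT step of pan was -0.95 and not called.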

How the data were processed

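Adult testes and single staged cysts were sequenced as 150-bp paired ends. The authors trimmed reads with Trimmomatic 0.36, aligned them with HISAT2 2.2.0 to D. melanogaster release r6.36, and deposited, per library, StringTie 2.1.4 FPKM values and, in 2 tables (cysts and testis), HTSeq 0.6.0 read counts taken without strand and in union mode. FPKM describe levels (log2 after adding 1) and counts carry the tests.

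Counts were fitted in R 4.3.3 with edgeR 4.0.16 (TMM, quasi-likelihood test, two-sided, Benjamini-Hochberg over all genes tested), keeping genes with a mean of at least 5 normalized counts in a group. DESeq2 1.42.0 was the alternative. Scripts were tested on simulated counts: of 200 genes set to a log2 fold change of 2, 58.5% were called between SG and pSC in D. mel WT, 89.5% in C at testis, 77% in C at rST and 17% for a step difference between rST and eST. For the SG to pSC step these 200 were the only changed genes among 12945, whereas 20.7% of genes were called in the data. With so few changed genes the adjustment is stricter, so these shares do not give the power of the reported step tests.

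The fourth chromosome genes and role lists were chosen with earlier results of these data known. Role lists held 20, 19, 11, 5 and 10 symbols, of which 19, 18, 10, 5 and 8 were found. Named genes were those of at least 50 FPKM in a D. mel WT group, the 5 called genes with the largest changes in each direction per step and no overlap, called genes of the line comparisons, role list members and the profiles closest to JYalpha. Dot chromosome genes overlapping another gene (50 of 114) can lose or take reads at the overlap. D. simulans libraries were not used here. No sequence is shown.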

Additional observations from a re-analysis of the deposited data

Results flagged for a closer look

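D. mel KO eST replicate 3 held 0.368% of its counted reads on dot chromosome genes, and its gap to the other 5 cysts of the group, at 0.136% to 0.221%, was large for the range of the group. It is 1 of the 9 cysts that lay closer to another stage, here pSC. Chance gives such a gap in about 1 in 20 groups, and 48 gaps were examined over both ends of 24 sets of values (groups by measure), of which this was the 1 beyond the critical value.

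For 6 genes a step between stages differed between D. mel WT and another line in edgeR's test of the difference. From SG to pSC, the step of D. mel KO less that of D. mel WT was -2.81 for CG11155 (adjusted p = 0.042) and -4.66 for CG33521 (adjusted p = 0.026), whose D. mel KO SG cysts held 8.68, 0.510, 1.37 and 1.04 FPKM. That of CG33521 was -2.84 and no longer called without D. mel KO SG replicate 1, and that of CG11155 was lost without any of 12 single libraries. From SG to pSC, the step of replacement less that of D. mel WT was 4.72 for onecut (adjusted p = 0.0033), which rests on 2 reads in replacement SG, and -1.36 for Gyf (adjusted p = 0.040), a GYF-domain protein of translational repression.

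From rST to eST, the step of D. mel KO less that of D. mel WT was 2.85 for ci (adjusted p = 0.033) and 2.44 for pan (adjusted p = 0.0089), and that of replacement less D. mel WT was 2.41 for pan (adjusted p = 0.024). With the 9 cysts left out, the differences for CG11155, CG33521, ci and pan were not called, while those for onecut and Gyf were. The call of Gyf was nevertheless lost without any one of 12 single libraries, that of ci without any one of 9 and that of pan in replacement without any one of 7.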

How the results depend on the processing

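No gene followed over the alternatives changed direction under any of them, but the difference of medians in testis changed sign with no minimum on level, to 0.0017 in D. mel WT, 0.046 in D. mel KO and 0.13 in replacement. The 9 cysts were singled out after seeing the data. Without them the dot chromosome calls were 17 against 5 from pSC to rST in D. mel WT and 10 against 4 in D. mel KO. Of all genes, 1835 rose and 2769 fell of 13299 in D. mel WT, and 1345 rose and 1655 fell of 12932 in D. mel KO. The dot chromosome calls were 2 against 4 in C at rST, where 357 of 12341 genes in all were higher and 212 lower. They were 0 against 2 in C at eST (99 and 105 of 12345). In C-B they were 1 against 3 at SG (67 and 25 of 13148), 1 against 0 at pSC (280 and 92 of 13071) and 1 against 0 at eST (348 and 226 of 12345). The step differences of D. mel KO from SG to pSC and from rST to eST went from 2 to 0. That of replacement from rST to eST went from 1 to 0. For step differences no count over all genes is given under the alternatives. With DESeq2 size factors the dot chromosome calls were 2 from pSC to rST in D. mel KO (89 higher and 1256 lower of 12928 genes in all). They were 15 from rST to eST in replacement (952 and 852 of 13079), 1 in C-B at eST (391 and 291 of 12468) and 1 for the rST to eST difference of D. mel KO. The DESeq2 test called 9 from pSC to rST in D. mel WT (1292 and 1856 of 13293 in all) and 17 from rST to eST in replacement (1387 and 1152 of 13079). It called 7 in C, 3 in B and 8 in C-B at SG, 1 in C and 3 in C-B at pSC, and 3 in C-B at eST (755 and 577 of 12468). A minimum of 50 normalized counts gave 0 in C at testis (166 and 217 of 9829 in all) and 1 in C-B at eST (332 and 241 of 9060). No minimum gave 2 in C at rST (416 and 247 of 15652) and 1 for the SG to pSC difference of replacement. One fit over 62 cysts gave 2 from pSC to rST in D. mel WT (78 and 997 of 13661 in all) and 13 from rST to eST in replacement (1790 and 976). Fitting only the 2 groups compared gave 0 in C at testis (270 and 305 of 12681 in all), 2 at rST (372 and 234 of 12323) and 0 at eST (127 and 136 of 12245). At an unadjusted p under 0.05, C-B had 34 in testis, 27 in SG, 20 in pSC, 25 in rST and 7 in eST.

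The replicate numbers were not used as pairs in the main fits, since in no comparison did every same-numbered pair correlate above 0.1. That rule cannot exclude pairing. For eST of replacement and D. mel KO the mean correlation was 0.242 for same numbers and -0.047 for other numbers. For SG of these lines it was -0.341 and 0.068. With the replicate block the dot chromosome calls over all comparisons were 175 against 185, with 0 for the SG to pSC difference of D. mel KO. In C they were 1 at pSC (50 higher and 52 lower of 12971 genes in all), 2 at rST (269 and 184 of 12415) and 0 at eST (89 and 128 of 12452). In C-B they were 1 at pSC (232 and 80 of 12971) and 0 at SG. Of all 13188 genes, the block left 18 higher and 5 lower in C-B at SG, against 201 and 49 without it. 

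For the difference of medians in D. mel WT, the mean in place of the median gave -0.47 in testis, -0.83 in SG, -0.71 in rST and -0.74 in eST. A minimum of 1 FPKM gave -0.90 in SG, -0.83 in pSC and -0.53 in eST, no minimum gave 0.0017 in testis, -0.64 in SG, -0.47 in pSC, -0.12 in rST and -0.13 in eST, and adding 0.1 in place of 1 gave -0.40 in testis, -1.21 in pSC, -0.69 in rST and -0.59 in eST. The cause of these shifts was not tested.

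Leaving out 1 library at a time gave 4 to 13 from pSC to rST and 9 to 20 from rST to eST in D. mel WT, 2 to 7 from pSC to rST in D. mel KO, and 6 to 17 from pSC to rST and 4 to 13 from rST to eST in replacement. It gave 0 to 2 in C at testis, 0 to 1 at pSC, 2 to 6 at rST and 0 to 2 at eST, 0 to 1 in B at SG and 1 to 2 at rST, and in C-B 0 to 1 at testis, 0 to 1 at pSC and 0 to 2 at eST. The step differences ranged from 0 to 3 (SG to pSC) and 0 to 2 (rST to eST) in D. mel KO and from 1 to 3 and 0 to 1 in replacement. All of these are counts of dot chromosome genes. No counts over all genes are set beside them, so they do not show whether dot chromosome genes moved more than others. Low genes limit the depth: differences resting on a few reads, as for onecut in replacement SG, were not resolved.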
